A study of Saccharomyces cerevisiae with 9 samples.

Results

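Pcf11-DNL was compared with wild type across the whole transcriptome of Saccharomyces cerevisiae, over the 3 libraries labelled Pcf11-DNL and the 3 labelled wild type, which are 6 of the 9 libraries in the series. All the cells were W303, MAT alpha, lacked chromosomal PCF11 (pcf11 deletion marked with TRP1) and lived on a plasmid copy. In Pcf11-DNL the plasmid gene is written V5-pcf11-deltaN-link-MYC, and in wild type V5-PCF11-MYC, so both proteins carry V5 and MYC tags, and both plasmids carry LEU2. Both groups grew in YPAD at 30 °C with a treatment label of glucose (the growth notes also describe caffeine treatment, and no library here is labelled with it), and RNA came from 3 biological replicates of each, was selected for poly(A) tails and sequenced in pairs. Each group is thus 1 strain kept alive by a plasmid, and which residues deltaN-link removes is not stated in the labels. The remaining 3 libraries (Pcf11-13) entered the fit, where all the libraries share an estimate of the spread, and are not described further.

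Pcf11 is a subunit of cleavage factor IA, the complex that helps to cut a pre-mRNA at its poly(A) site. Its amino-terminal domain binds the phosphorylated tail of RNA polymerase II, and the protein also takes part in ending transcription at mRNA and snoRNA genes. At snoRNA genes that end depends on Nrd1 and Nab3, which bind GUAG and UCUU in the RNA, and on the helicase Sen1. When the end is missed, the polymerase can run on into the next gene. Pcf11 also limits its own mRNA, since transcription of PCF11 can end early within the gene.

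Values are CPM, in which each library is brought to a common total and scaled with edgeR's normalization factors, and n is 3 in each group throughout. Fold changes are Pcf11-DNL over wild type. Adjusted p-values are from edgeR's quasi-likelihood test, two-sided, with Benjamini-Hochberg adjustment over the 5646 genes tested, and a gene is called when that value is under 0.05. The libraries held 13273544 to 15061381 expected counts in Pcf11-DNL and 12361071 to 15906466 in wild type. Wild type replicate 1 stood apart. It had the lowest total, its counts differed from those of the other wild type libraries with a chi-square per degree of freedom of 10.7 and 10.1, and the other pairs within a group had 2.49 to 4.57. On the first principal component (43.9% of the variance) the Pcf11-DNL libraries lay between −9.70 and −7.85, wild type replicates 2 and 3 at 5.03 and 6.59, and wild type replicate 1 at 15.2. The main counts below are therefore given with and without it. No pair of libraries matched within sampling noise. The labelled mating type was checked on its markers. The MAT alpha list (4 of 4 detected) summed to 1779 to 1873 CPM in Pcf11-DNL and 2051 to 2357 CPM in wild type. The MAT a list summed to 43.6 to 46.8 CPM in Pcf11-DNL and 40.5 to 42.1 CPM in wild type, with its pheromone genes MFA1 and MFA2 at 0 in all 6 libraries.

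The plasmid gene was checked first. PCF11 (YDR228C, chrIV:921926-923806, − strand) had 68.4, 64.5 and 69.3 CPM in Pcf11-DNL, against 81.4, 87.5 and 85.1 CPM in wild type. The groups did not overlap (log2 fold change −0.33 ± 0.05 SE, adjusted p = 0.00072 by edgeR), and without wild type replicate 1 the log2 fold change was −0.36. A count over the whole gene cannot tell a lower transcript level from reads lost with a deleted stretch. LEU2 is the plasmid marker, but both strains are also described with a mutant leu2 allele, whose reads the count cannot separate. LEU2 had 224, 213 and 220.2 CPM in Pcf11-DNL, against 191, 204 and 202 CPM in wild type. Its small difference (log2 fold change 0.14 ± 0.04 SE, adjusted p = 0.0447 by edgeR) was no longer called without wild type replicate 1 (edgeR adjusted p = 0.0933, range over the alternatives 0.0135 to 1) or when any other single library was left out. TRP1, the deletion marker, had 108, 106 and 105 CPM in Pcf11-DNL, against 101, 102 and 104 CPM in wild type, and was not called (edgeR adjusted p = 0.489).

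Pcf11-DNL differed from wild type in many genes by small amounts. Of the 5646 genes, 736 (13%) were called: 493 (8.73%) were higher and 243 (4.3%) lower in Pcf11-DNL. The median called gene was 1.27-fold higher or 1.15-fold lower, and 308 of the 736 changed by less than 1.2-fold. A change of at least 1.5-fold was fitted for 78 higher and 12 lower genes, and of at least 2-fold for 19 and 4. Of these 23 genes, 14 either had a near-identical copy elsewhere in the genome or averaged under 5 CPM. The other 9 were CTO1, YDR042C, USE1, YDL186W, BAG7, GRX8, ATG10 and MER1, all higher, and FIT2, which was lower. Tested against a fold of 1.2 in place of 1, 104 genes were called (1.84%), 89 of them higher (1.58%) and 15 lower (0.266%). In 1854 genes (32.8%) the libraries of the groups did not overlap, and among the called genes in 728 of 736 (98.9%). Scaling to library totals moved the split of calls to 728 higher (12.9%) and 124 lower (2.2%), so that 85.4% of calls were higher, against 67.0% with the factors used here. In a population of cells, less RNA per cell and fewer cells with that RNA cannot be told apart.

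Leaving out wild type replicate 1 ended fewer of these calls than leaving out any other library. Without it 473 genes were higher (8.36%) and 201 lower (3.55%) of 5659 tested. Of the 736 calls, 573 (77.9%) were kept, 163 were lost, 101 genes were newly called, and no called gene changed direction. Without a Pcf11-DNL library 467 to 470 of the 736 were kept, and without wild type replicate 2 or 3, 559 and 555. Calls kept in each of the 6 leave-one-out fits numbered 353. Retention without wild type replicate 1 went with size. Of genes that differed by under 0.2 on the log2 scale 58.4% were kept, against 81.3% of those between 0.2 and 0.3, 83.7% between 0.3 and 0.5, and 88.8% at 0.5 and above. Of the 493 higher genes 403 (81.7%) were kept, and of the 243 lower genes 170 (70.0%). For lower genes the median ratio of the log2 fold change without the library to that with it was 0.879, and for higher genes 0.988.

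**Figure D1:**
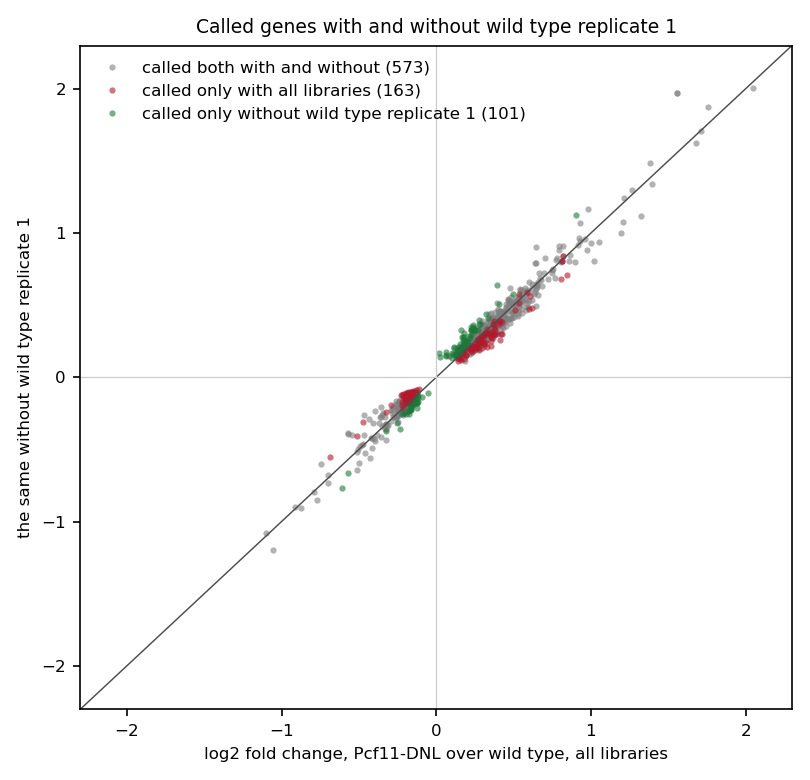
Log2 fold change of Pcf11-DNL over wild type with all libraries (x axis) and without wild type replicate 1 (y axis), for each gene called in at least 1 of the fits; the line marks equal values. The 573 genes called both ways, the 163 called only with all libraries and the 101 called only without it all keep their direction, and 5 called genes beyond 2.3 on the x axis lie outside the frame.

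**Figure D2:**
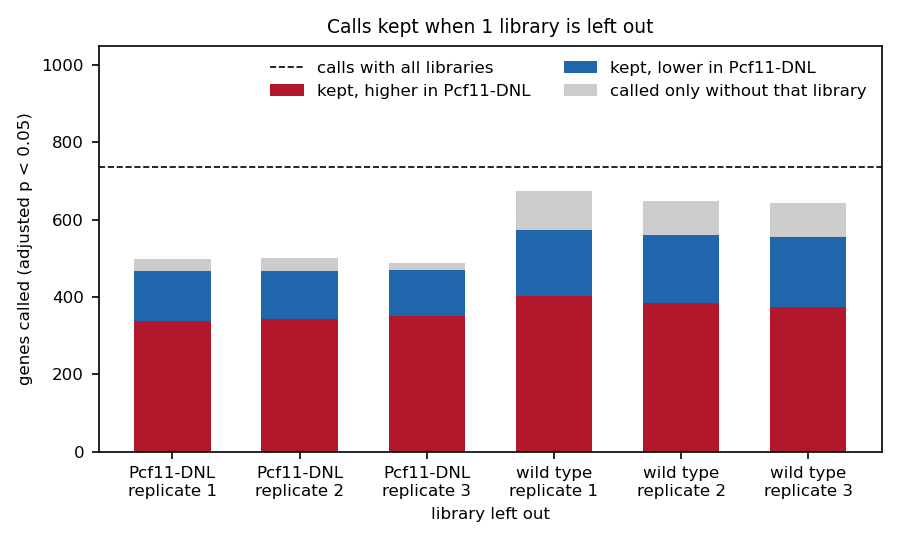
Number of genes called (y axis) when the library named on the x axis is left out: the red and blue parts are calls shared with the fit to all libraries, the grey part genes called only without that library, and the dashed line the 736 calls with all libraries. The tallest bar of kept calls, 573, is the one without wild type replicate 1.

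Among genes without near-identical copies that averaged 5 CPM or more, the largest called changes were at 3 genes that lie behind snoRNA genes. CTO1 (YCR015C, chrIII:141217-142170, − strand), a little-studied protein gene 193 bases behind the snoRNA gene SNR33, had 88.4, 89.4 and 94.1 CPM in Pcf11-DNL, against 20.3, 24.04 and 21.2 CPM in wild type. That is 4.14-fold higher (log2 fold change 2.05 ± 0.06 SE, adjusted p = 2.5e-12 by edgeR). YDR042C (chrIV:540601-541203, − strand), an uncharacterized gene 398 bases behind SNR47, had 39.7, 38.6 and 36.4 CPM in Pcf11-DNL, against 11.5, 12.6 and 10.9 CPM in wild type (log2 fold change 1.71 ± 0.07 SE, adjusted p = 9.22e-11 by edgeR). USE1 (YGL098W, chrVII:317342-318079, + strand), a SNARE protein of traffic between Golgi and endoplasmic reticulum that lies 286 bases behind SNR82, had 91.1, 90.4 and 86.5 CPM in Pcf11-DNL, against 25.5, 27.3 and 30.5 CPM in wild type (log2 fold change 1.68 ± 0.06 SE, adjusted p = 4.9e-11 by edgeR). The rule that picked these 3 genes required no overlap between the groups and a call without wild type replicate 1. The margin between the groups was wide in all 3. Leaving out wild type replicate 1 gave 2.01, 1.71 and 1.63 on the log2 scale for CTO1, YDR042C and USE1.

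Few of the genes behind snoRNA or snRNA genes did the same. Of 34 such genes (start within 1000 bases, same strand), 5 rose, 10 fell and 19 were not called. That is 44.1% called, against 13% of all genes tested (8.73% higher and 4.3% lower). The median log2 fold change was −0.03, against 0.00 over all genes tested. Without wild type replicate 1 the counts were 5 and 9, with TMA20 lost. The set was taken by position, so it can include RNA genes whose ends do not depend on Nrd1 and Nab3. FLX1 (YIL134W), a carrier of flavin adenine dinucleotide into mitochondria 148 bases behind SNR68, had 48.2, 42.00 and 43.1 CPM in Pcf11-DNL, against 28.5, 27.5 and 33.3 CPM in wild type (log2 fold change 0.57 ± 0.07 SE, adjusted p = 6.97e-05 by edgeR). RGT1, a repressor of hexose transporter genes, had 92.3, 94.5 and 88.1 CPM in Pcf11-DNL, against 84.4, 77.4 and 74.6 CPM in wild type (log2 fold change 0.22 ± 0.06 SE, adjusted p = 0.0181 by edgeR), and its call ended when Pcf11-DNL replicate 1 or 2 or wild type replicate 2 or 3 was left out (edgeR adjusted p = 0.053 to 0.0789). The 3 lowest of those that fell were TRS31, a subunit of the TRAPP tethering complexes, at −0.48, DFR1, dihydrofolate reductase, at −0.42, and RPS14A, a small-subunit ribosomal protein, at −0.32. TRS31 had 45.6, 40.2 and 40.5 CPM in Pcf11-DNL, against 59.97, 56.9 and 59.6 CPM in wild type, with no overlap (log2 fold change −0.48 ± 0.06 SE, adjusted p = 2.75e-05 by edgeR).

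The first 120 bases behind the snoRNA are printed for the 3 genes with the large rise and, for contrast, for TRS31, which fell. They were read 5′ to 3′ on the strand of the gene from the RefSeq R64 assembly, and capitals mark GTAG and TCTT, the DNA letters of the Nrd1 and Nab3 motifs, searched on that strand only.
SNR33 to CTO1, chrIII:142244-142363, − strand: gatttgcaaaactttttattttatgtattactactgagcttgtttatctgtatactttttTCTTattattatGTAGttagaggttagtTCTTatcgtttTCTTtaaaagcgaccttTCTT
SNR82 to USE1, chrVII:317056-317175, + strand: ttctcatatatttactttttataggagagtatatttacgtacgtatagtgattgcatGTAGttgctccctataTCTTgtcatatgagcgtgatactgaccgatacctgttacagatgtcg
SNR47 to YDR042C, chrIV:541482-541601, − strand: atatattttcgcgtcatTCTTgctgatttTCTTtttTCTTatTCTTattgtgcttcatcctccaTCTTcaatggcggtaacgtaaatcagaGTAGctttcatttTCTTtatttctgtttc
SNR13 to TRS31, chrIV:1403043-1403162, + strand: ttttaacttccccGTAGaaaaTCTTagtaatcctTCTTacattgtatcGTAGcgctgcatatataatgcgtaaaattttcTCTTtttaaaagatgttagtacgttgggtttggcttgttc
Both motifs are present in all 4. Over the 34 genes, 21 of these windows (61.8%) hold both, made up of 5 of the 5 genes that rose, 8 of the 10 that fell and 8 of the 19 not called. Of the 120-base windows directly before all 5627 tested genes with a full window, 12.4% hold both. Those windows lie before genes and not behind snoRNA genes, where Nrd1 and Nab3 act, so the shares are of unlike windows. Genes that rose and genes that fell both held the motifs.

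The other genes with the largest rises came from several processes. YDL186W (chrIV:125616-126449, + strand), of unknown function, had 21.5, 21.9 and 21.6 CPM in Pcf11-DNL, against 9.49, 8.68 and 8.91 CPM in wild type (log2 fold change 1.27 ± 0.10 SE, adjusted p = 2.84e-07 by edgeR). BAG7 (YOR134W, chrXV:578564-579793, + strand), a GTPase-activating protein for Rho1, had 32.2, 30.6 and 33.4 CPM in Pcf11-DNL, against 14.5, 13.3 and 13.8 CPM in wild type (log2 fold change 1.21 ± 0.08 SE, adjusted p = 8.31e-08 by edgeR). TOS3 (YGL179C, chrVII:163409-165091, − strand), a kinase that activates Snf1, had 115, 106 and 103 CPM in Pcf11-DNL, against 47.1, 59.9 and 57.5 CPM in wild type (log2 fold change 0.97 ± 0.07 SE, adjusted p = 2.04e-07 by edgeR). In these 3 genes the lowest Pcf11-DNL library was above the highest wild type library, which the rule that picked them required. GRX8, a glutaredoxin, and ATG10, an enzyme of autophagy, were low, at 9.81 ± 1.20 CPM in Pcf11-DNL and 4.19 ± 1.33 CPM in wild type for GRX8 and 8.60 ± 0.829 CPM in Pcf11-DNL and 4.11 ± 1.06 CPM in wild type for ATG10 (SD), and rose by 1.19 and 1.05 on the log2 scale. MER1, a splicing factor of meiotic transcripts, had 16.6, 15.9 and 18.8 CPM in Pcf11-DNL, against 7.54, 10.2 and 7.80 CPM in wild type (log2 fold change 1.00 ± 0.13 SE, adjusted p = 6.97e-05 by edgeR). YLL067C (chrXII:585-4301), a subtelomeric open reading frame with 14 near-identical copies, rose by 1.21, and which copy its reads came from is uncertain.

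GLO4 and ADE16 were among the largest falls and belong to neither of the regulons described below. ADE16 (YLR028C, chrXII:199540-201315, − strand), an enzyme of purine synthesis, had 227, 206 and 227 CPM in Pcf11-DNL, against 311, 319 and 311 CPM in wild type (log2 fold change −0.51 ± 0.05 SE, adjusted p = 1.46e-06 by edgeR). GLO4 (YOR040W, chrXV:407064-407921, + strand), a mitochondrial glyoxalase, had 8.41, 9.34 and 8.07 CPM in Pcf11-DNL, against 14.4, 14.1 and 13.6 CPM in wild type (log2 fold change −0.70 ± 0.10 SE, adjusted p = 0.000259 by edgeR). The rule that picked both genes required libraries that do not overlap and a call without wild type replicate 1. Without that library the log2 fold changes were −0.52 for ADE16 and −0.68 for GLO4.

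**Figure D3:**
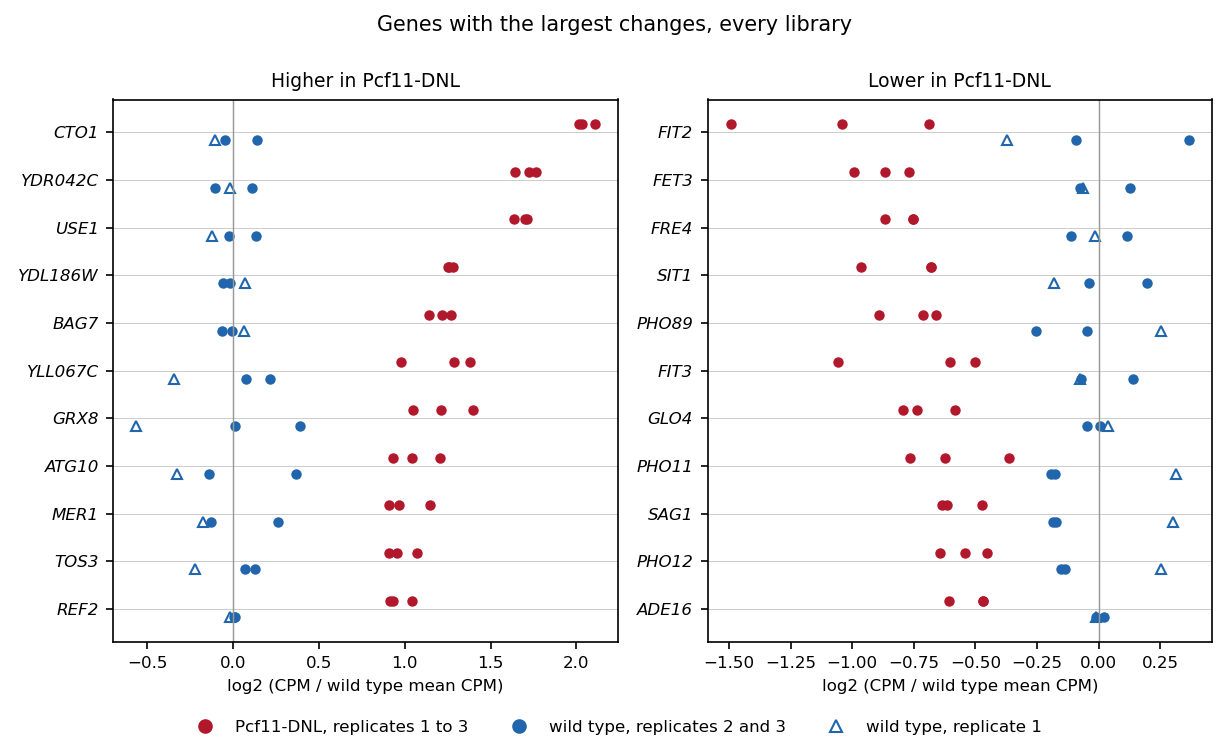
Level of each gene in each library relative to the wild type mean of that gene (x axis, log2), for the genes with the largest rises (left) and falls (right) that were also called without wild type replicate 1; the Ty copies YAR010C and YPR137C-A are left out. Red points are the 3 Pcf11-DNL libraries, filled blue points wild type replicates 2 and 3, and open triangles wild type replicate 1, which lies well above the other wild type libraries for PHO89, PHO11, SAG1 and PHO12.

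A pair of retrotransposon genes shows what the counting does with repeats. YAR010C had 39.4, 27.7 and 49.3 CPM in Pcf11-DNL, against 17.2, 10.6 and 16.8 CPM in wild type, and YPR137C-A had 0.137, 0.140 and 0.154 CPM in Pcf11-DNL, against 17.2, 10.6 and 16.8 CPM in wild type. These are 2 copies of a Ty1 reading frame with the same 1323 bases in the reference, and each has 53 near-identical copies (at least 95% identity over at least 50% of the length). In wild type their values were equal library by library, and in Pcf11-DNL nearly all of the sum was given to YAR010C. The sum of both copies was 39.5, 27.8 and 49.5 CPM in Pcf11-DNL, against 34.4, 21.2 and 33.7 CPM in wild type, and these ranges overlap. The calls of the single copies (log2 1.38 and −6.61 for YAR010C and YPR137C-A) are uncertain for that reason, and the YAR010C call also ended with the DESeq2 Wald test. Of the 736 called genes 40 have a near-identical copy.

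Among 27 genes of the 3′ end processing machinery 4 rose and 3 fell, PCF11 with the limit above among them. That is 25.9% called, against 13% of all genes, with a median log2 fold change of −0.01. The same 4 and 3 counts held without wild type replicate 1. REF2 (YDR195W, chrIV:848599-850200, + strand), the APT-module subunit of the cleavage and polyadenylation factor that recruits the phosphatase Glc7 and is needed at snoRNA ends, had 143, 154 and 140.5 CPM in Pcf11-DNL, against 73.7, 75.2 and 75.04 CPM in wild type (log2 fold change 0.96 ± 0.05 SE, adjusted p = 8.69e-10 by edgeR). Its mean was 1.95-fold the wild type mean. PTI1, another subunit of that factor with a role at snoRNA ends, had 60.8, 62.4 and 57.6 CPM in Pcf11-DNL, against 46.2, 43.1 and 45.2 CPM in wild type (log2 fold change 0.43 ± 0.06 SE, adjusted p = 9.23e-05 by edgeR). SSU72, the phosphatase of the polymerase tail, had 18.5, 21.3 and 21.7 CPM in Pcf11-DNL, against 13.9, 14.9 and 15.9 CPM in wild type (log2 fold change 0.46 ± 0.10 SE, adjusted p = 0.00675 by edgeR). HRP1, cleavage factor IB, had 359, 360.0 and 354 CPM in Pcf11-DNL, against 312, 306 and 292 CPM in wild type (log2 fold change 0.24 ± 0.04 SE, adjusted p = 0.00122 by edgeR). Besides PCF11, its cleavage factor IA partner RNA14 fell, with 111, 121 and 112 CPM in Pcf11-DNL, against 141, 139 and 137 CPM in wild type (log2 fold change −0.28 ± 0.05 SE, adjusted p = 0.00136 by edgeR). PAB1, the poly(A)-binding protein, had 1237, 1168 and 1190.0 CPM in Pcf11-DNL, against 1539.6, 1320.0 and 1314 CPM in wild type (log2 fold change −0.21 ± 0.06 SE, adjusted p = 0.026 by edgeR), and its call ended when Pcf11-DNL replicate 2 or 3 was left out (edgeR adjusted p = 0.085 to 0.102). None of the other 20 genes was called. In the 28 genes of termination and nuclear RNA decay, AIR2, an RNA-binding subunit of TRAMP, rose (0.41), PCF11, which that list also holds, was lower, with the limit on its count given above, and 26 were not called. That is 7.14% called, against 13% of all genes.

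Genes listed as linked to control by transcription termination moved both ways. Not every member is held down by early termination of its own transcript. Of 23, 5 rose and 4 fell (39.1% called, against 13% of all genes), with a median of −0.04. Without wild type replicate 1 the counts were 6 and 5, with TIS11 and URA2 gained. The falls were PHO84, PHO5, IMD2 and PCF11, and PHO84 and PHO5 are counted again with the phosphate genes below. URA8, a CTP synthase, had 150.1, 135 and 139.9 CPM in Pcf11-DNL, against 101, 105 and 103 CPM in wild type (log2 fold change 0.46 ± 0.05 SE, adjusted p = 7.16e-06 by edgeR). SER3, an enzyme of serine synthesis, had 192, 203 and 189.5 CPM in Pcf11-DNL, against 156, 145 and 144 CPM in wild type (log2 fold change 0.40 ± 0.05 SE, adjusted p = 3.24e-05 by edgeR). DEF1, a factor for removing stalled polymerase, rose by 0.30. IMD2, the GTP-synthesis enzyme IMP dehydrogenase, had 397, 417 and 384 CPM in Pcf11-DNL, against 466, 471 and 449 CPM in wild type (log2 fold change −0.21 ± 0.04 SE, adjusted p = 0.00341 by edgeR).

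In 2 pairs of ribosomal protein paralogs the members moved in opposite directions. Of 136 ribosomal protein genes 2 rose and 10 fell (2 and 9 without wild type replicate 1), 8.82% in all, against 13% of all genes. The median was −0.04 and turned to 0.01 under library totals, where 3 rose and 3 fell. RPS14B had 414, 418 and 426 CPM in Pcf11-DNL, against 262, 266 and 272 CPM in wild type (log2 fold change 0.65 ± 0.04 SE, adjusted p = 2.36e-08 by edgeR), and its paralog RPS14A had 1028, 1009.7 and 1011 CPM in Pcf11-DNL, against 1278, 1282 and 1258 CPM in wild type (log2 fold change −0.32 ± 0.04 SE, adjusted p = 2.75e-05 by edgeR). RPS14B made up 29.2% of the pair's CPM in Pcf11-DNL and 17.3% in wild type. The pair's sum was 1442, 1427 and 1437 CPM in Pcf11-DNL, against 1540.3, 1548 and 1529.9 CPM in wild type. RPL7B had 549, 584 and 562 CPM in Pcf11-DNL, against 424, 441 and 460.4 CPM in wild type (log2 fold change 0.36 ± 0.05 SE, adjusted p = 0.000119 by edgeR). RPL7A fell, with a log2 fold change of −0.17, and its call ended when Pcf11-DNL replicate 3 was left out (edgeR adjusted p = 0.0521, range over the alternatives 0.000356 to 1). The share of RPL7B was 19.7% in Pcf11-DNL and 14.6% in wild type. Both paralogs that fell lie behind snoRNA genes, RPS14A behind SNR189 and RPL7A behind SNR39B. Among 58 paralog pairs these were the pairs with both members called in opposite directions, and no other gene matched any of the 4 as a near-identical copy.

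Genes of iron uptake were lower in Pcf11-DNL. Of 32 tested genes of the iron regulon 12 fell and 1 rose (40.6% called, against 13% of all genes), with a median log2 fold change of −0.16, against 0.00 over all genes tested. Summed over the regulon, the level was 2294 to 2492 CPM in Pcf11-DNL and 2890 to 3219 CPM in wild type. The regulon answers to Aft1, a transcription factor that binds TGCACCC and turns on iron uptake when iron is short. AFT1 (YGL071W) itself had 62.9, 50.7 and 58.2 CPM in Pcf11-DNL, against 71.5, 73.9 and 69.8 CPM in wild type (log2 fold change −0.32 ± 0.07 SE, adjusted p = 0.00333 by edgeR).

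The high-affinity uptake pair fell together. FET3 (YMR058W, chrXIII:388822-390732, + strand), the multicopper ferroxidase, had 195, 167 and 182 CPM in Pcf11-DNL, against 318, 363 and 316 CPM in wild type (log2 fold change −0.87 ± 0.06 SE, adjusted p = 1.21e-07 by edgeR). FTR1 (YER145C, chrV:460526-461740, − strand), the iron permease that works with it, had 259, 236 and 247 CPM in Pcf11-DNL, against 354, 359 and 339 CPM in wild type (log2 fold change −0.50 ± 0.05 SE, adjusted p = 1.65e-06 by edgeR). CCC2, which loads copper into Fet3, had 35.1, 36.2 and 37.3 CPM in Pcf11-DNL, against 44.2, 47.7 and 43.8 CPM in wild type (log2 fold change −0.32 ± 0.06 SE, adjusted p = 0.00291 by edgeR). Each of the 3 had no overlap between groups, and wild type replicate 1 lay inside the range of the other wild type libraries.

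Some of the cell wall siderophore binders, siderophore transporters and reductases fell too, while FIT1, ARN1, ARN2, FRE2, FRE3 and FRE5 of the same families did not pass the test. FIT2 (YOR382W, chrXV:1059531-1059992, + strand), a mannoprotein that retains siderophore iron, had 4.51, 3.30 and 5.76 CPM in Pcf11-DNL, against 7.19, 11.98 and 8.72 CPM in wild type (log2 fold change −1.05 ± 0.21 SE, adjusted p = 0.00316 by edgeR). FIT3 (chrXV:1060441-1061055, − strand), of the same family, had 10.3, 7.02 and 9.61 CPM in Pcf11-DNL, against 13.8, 16.1 and 13.9 CPM in wild type (log2 fold change −0.70 ± 0.15 SE, adjusted p = 0.00499 by edgeR). SIT1 (YEL065W, chrV:27657-29543, + strand), a transporter of ferrioxamine, had 64.3, 52.9 and 64.3 CPM in Pcf11-DNL, against 90.8, 118 and 100.3 CPM in wild type (log2 fold change −0.77 ± 0.08 SE, adjusted p = 1.6e-05 by edgeR). In these 3 genes wild type replicate 1 was the lowest wild type library or level with it, nearest to Pcf11-DNL. ENB1, the enterobactin transporter, fell by 0.42 on the log2 scale. FRE4 (YNR060W, chrXIV:739951-742110, + strand), a ferric reductase, had 63.04, 58.3 and 63.02 CPM in Pcf11-DNL, against 105, 115 and 98.5 CPM in wild type (log2 fold change −0.79 ± 0.06 SE, adjusted p = 2.3e-07 by edgeR). FRE1, the main cell surface reductase of ferric and cupric ions, had 409, 355 and 443 CPM in Pcf11-DNL, against 486, 607 and 609 CPM in wild type (log2 fold change −0.50 ± 0.08 SE, adjusted p = 0.00072 by edgeR). FRE6, another reductase, FET4, a low-affinity iron transporter, and AKR1, a palmitoyl transferase, fell by smaller amounts (−0.21, −0.15 and −0.16). The gene that rose was CTH1 (0.20), a factor that speeds decay of mRNAs of iron-using proteins. These 4 calls were not firm. FRE6 was lost when Pcf11-DNL replicate 2 or wild type replicate 2 was left out (edgeR adjusted p = 0.0507 to 0.0643), AKR1 when Pcf11-DNL replicate 2 or wild type replicate 2 was left out (edgeR adjusted p = 0.0547 to 0.0797), FET4 when Pcf11-DNL replicate 1, 2 or 3 or wild type replicate 2 or 3 was left out (edgeR adjusted p = 0.0648 to 0.141) and CTH1 when Pcf11-DNL replicate 2 or 3 or wild type replicate 2 or 3 was left out (edgeR adjusted p = 0.0642 to 0.131). Library totals also ended the calls of FRE6, AKR1 and FET4, and DESeq2's Wald test that of CTH1.

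The iron result did not rest on wild type replicate 1. Without it 14 genes fell and 1 rose, the median was −0.18, and no call was lost. FIT2 then stood at −1.20, FET3 at −0.90 and SIT1 at −0.85 on the log2 scale. The genes gained were ARN1, a siderophore transporter, and TIS11 (Cth2), a relative of Cth1. TIS11 had 4.38, 6.25 and 7.22 CPM in Pcf11-DNL, against 6.65, 11.1 and 9.04 CPM in wild type, which overlap through wild type replicate 1 (edgeR adjusted p = 0.0588 with all libraries, 0.0111 without it, range over the alternatives 0.00948 to 0.493). Under library totals 9 iron genes fell and 2 rose.

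The Aft1 letters were looked for in the 500 bases before each gene, on both strands. They were present for 22 of the 32 iron genes, for 10 of the 12 that fell and for 12 of the 20 that did not, and for 2.29% of 5627 genes with a full window. The list was drawn up as genes that answer to Aft1, so its share over all genes was largely set by that choice. FIT3, which fell, and FRE5, which was not called, share the same sites, and each is counted. The windows of 5 genes that fell are printed with the motif in capitals, 20 bases to each side, on the strand of the gene (GGGTGCA is TGCACCC on the other strand).
FET3, chrXIII:388551-388597, + strand: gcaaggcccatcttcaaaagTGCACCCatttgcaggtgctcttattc
FTR1, chrV:461889-461935, − strand: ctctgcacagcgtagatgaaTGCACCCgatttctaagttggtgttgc
FIT2, chrXV:1059380-1059426, + strand: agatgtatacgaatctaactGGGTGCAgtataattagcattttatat
SIT1, chrV:27449-27495, + strand: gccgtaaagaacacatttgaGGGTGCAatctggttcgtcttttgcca
FRE4, chrXIV:739494-739540, + strand: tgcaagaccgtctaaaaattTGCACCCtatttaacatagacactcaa
The capitals begin 251 bases before the start codon at FET3, 175 at FTR1, 131 at FIT2, 188 at SIT1 and 437 at FRE4. FIT2 holds the motif 4 times in its 500 bases.

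Genes of phosphate acquisition were lower as well. Of 31 tested genes of the phosphate starvation response 12 fell and none rose (38.7% called, against 13% of all genes), with a median of −0.17. Of the 31 genes 15 lie in the highest quintile of genes by expression, where 10.1% of all genes were called lower. The summed level was 8618 to 9201 CPM in Pcf11-DNL and 10267 to 12295 CPM in wild type. The response is driven by the transcription factor Pho4, which binds CACGTG. PHO89 (YBR296C, chrII:796798-798522, − strand), a sodium-coupled phosphate transporter, had 85.2, 82.04 and 72.5 CPM in Pcf11-DNL, against 160.3, 113 and 130.2 CPM in wild type (log2 fold change −0.74 ± 0.10 SE, adjusted p = 0.000127 by edgeR). PHO84 (YML123C, chrXIII:24037-25800, − strand), the high-affinity phosphate transporter, had 2171, 2175 and 2106 CPM in Pcf11-DNL, against 3219, 2695 and 2659.6 CPM in wild type (log2 fold change −0.41 ± 0.06 SE, adjusted p = 0.000221 by edgeR). For both, all Pcf11-DNL libraries were lower than all wild type libraries, and wild type replicate 1 was the highest.

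Secreted acid phosphatases and polyphosphate synthesis made up most of the rest. PHO5 had 535, 611 and 518 CPM in Pcf11-DNL, against 889.7, 669.9 and 635 CPM in wild type (log2 fold change −0.40 ± 0.10 SE, adjusted p = 0.012 by edgeR), and its call ended when Pcf11-DNL replicate 1 or 3 was left out (edgeR adjusted p = 0.0567 to 0.0618). PHO11 and PHO12 are near-identical to each other, so their reads can be split between them in either way, and they had log2 fold changes of −0.57 and −0.54. PHO12 (chrVIII:552099-553502) had 613, 651 and 570.4 CPM in Pcf11-DNL, against 1063, 812 and 802 CPM in wild type. VTC4, the catalytic subunit of the polyphosphate polymerase, had 841, 836 and 813 CPM in Pcf11-DNL, against 1194, 1006 and 979.8 CPM in wild type (log2 fold change −0.35 ± 0.06 SE, adjusted p = 0.000936 by edgeR). VTC1, VTC2 and VTC3, its other subunits, fell too, with log2 fold changes of −0.28, −0.24 and −0.37. GIT1, a glycerophosphoinositol transporter, PHO81, the inhibitor of the Pho85 kinase, and PHO86, which helps Pho84 to leave the endoplasmic reticulum, also fell (−0.34, −0.22 and −0.20), with PHO81 lost when Pcf11-DNL replicate 3 was left out (edgeR adjusted p = 0.0689, range over the alternatives 0.00178 to 1) and PHO86 when Pcf11-DNL replicate 1 or 3 or wild type replicate 1 was left out (edgeR adjusted p = 0.0706 to 0.16). SPL2, a small protein that limits low-affinity uptake, was not called, with 56.3, 64.1 and 47.95 CPM in Pcf11-DNL, against 63.9, 62.1 and 64.5 CPM in wild type.

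Here wild type replicate 1 changed the sizes more than the calls. Without it 12 phosphate genes still fell, with PHO86 lost and PHO4 gained, and the median was −0.15. Its level was the highest of the wild type libraries for 11 of the 12, and the fall became smaller without it: −0.60 for PHO89, −0.39 for PHO11, −0.40 for PHO12 and −0.23 for PHO5. Over the 31 genes this library stood a median of 0.13 on the log2 scale above the mean of the other wild type libraries, against 0.01 over all genes. Under library totals 11 fell and 2 rose.

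The letters CACGTG were present in the 500 bases before 18 of the 31 genes, 11 of the 12 that fell and 7 of the 19 that did not, and before 6.33% of all genes. This list too was drawn up from a known response, so its share over all genes was largely set by that choice. VTC3, which fell, and CTF19, which was not called, share the same sites, and each is counted. The windows of 4 genes that fell are printed in the same way as those of the iron genes.
PHO84, chrXIII:26189-26234, − strand: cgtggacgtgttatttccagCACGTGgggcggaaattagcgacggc
PHO89, chrII:798820-798865, − strand: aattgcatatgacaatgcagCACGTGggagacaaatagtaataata
PHO5, chrII:431179-431224, − strand: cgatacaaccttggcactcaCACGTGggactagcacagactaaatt
PHO12, chrVIII:551796-551841, + strand: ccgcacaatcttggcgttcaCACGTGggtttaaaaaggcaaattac
PHO11 has the same printed letters as PHO12. The motif starts 414 bases before the start codon at PHO84, 323 at PHO89, 253 at PHO5 and 283 at PHO12.

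**Figure D4:**
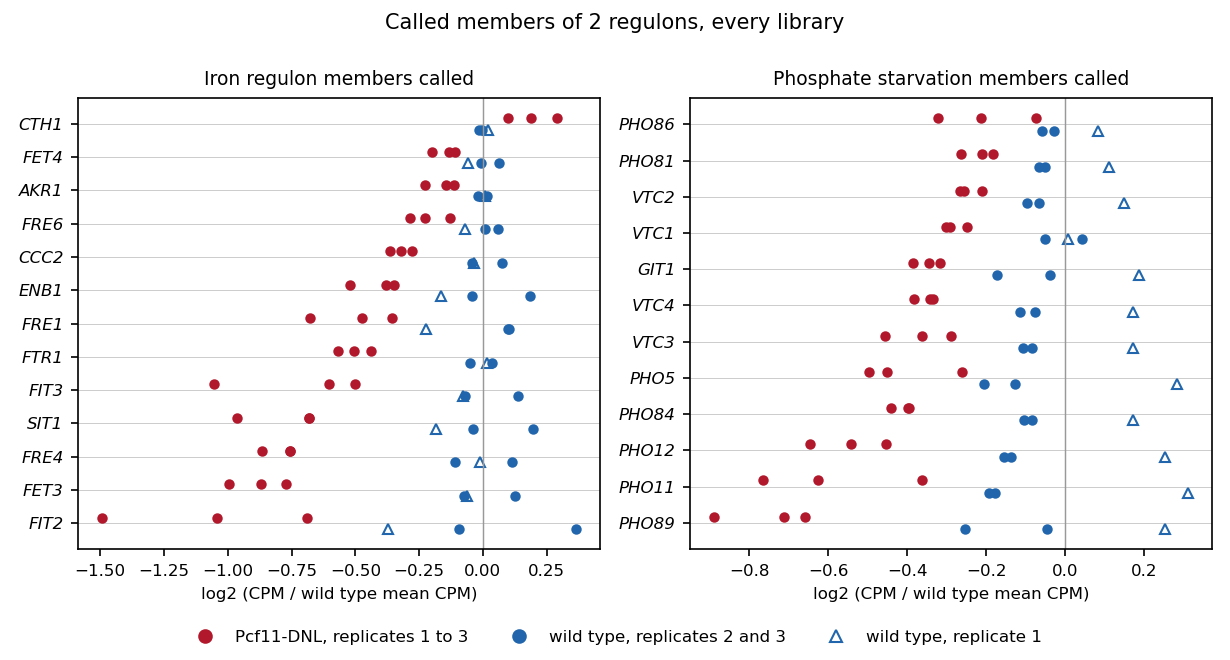
Level of each called member of the iron regulon (left) and the phosphate starvation list (right) in each library, relative to its wild type mean (x axis, log2); red points are Pcf11-DNL, filled blue points wild type replicates 2 and 3, and open triangles wild type replicate 1. The triangles lie at the low end or inside the wild type points for most iron genes and at the high end for 11 of the 12 phosphate genes.

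Of 5 tested genes of the MAT alpha programme, 3 fell (60% called, against 13% of all genes) and the other 2 were not called. All 5 lie in the highest quintile of expression, where 10.1% of all genes were called lower. Wild type replicate 1 was the highest wild type library for the 3 that fell, and all 3 were also called without it. SAG1 (YJR004C, chrX:442909-444861, − strand), the alpha agglutinin of mating adhesion, had 308, 341 and 305 CPM in Pcf11-DNL, against 584, 419.5 and 416 CPM in wild type (log2 fold change −0.57 ± 0.10 SE, adjusted p = 0.000844 by edgeR), and without wild type replicate 1 the log2 fold change was −0.39. STE3, the receptor for a-factor, had 354, 337 and 337 CPM in Pcf11-DNL, against 426, 393 and 386 CPM in wild type (log2 fold change −0.23 ± 0.05 SE, adjusted p = 0.00321 by edgeR). MF(ALPHA)1, the main alpha-factor gene, had 929.5, 999 and 1004 CPM in Pcf11-DNL, against 1119, 1106 and 1047 CPM in wild type (log2 fold change −0.16 ± 0.04 SE, adjusted p = 0.0285 by edgeR), and that call ended under library totals and when Pcf11-DNL replicate 1 or 3 or wild type replicate 2 was left out (edgeR adjusted p = 0.0503 to 0.145). Of 23 pheromone response genes 6 fell and 2 rose (34.8% called, against 13% of all genes), with a median of 0.04. Without wild type replicate 1 the counts were 5 and 2, with STE12 and MSG5 lost and PRM2 gained. FUS1, a cell fusion protein, had 20.9, 20.9 and 24.3 CPM in Pcf11-DNL, against 30.8, 28.1 and 26.7 CPM in wild type (log2 fold change −0.37 ± 0.08 SE, adjusted p = 0.00675 by edgeR). KAR4, a transcription factor of karyogamy, and GIC2, a Cdc42 effector, fell, each with a log2 fold change of −0.26. FUS2, also of cell fusion, went the other way, with 10.3, 12.5 and 9.91 CPM in Pcf11-DNL, against 6.48, 6.53 and 6.49 CPM in wild type (log2 fold change 0.75 ± 0.14 SE, adjusted p = 0.0016 by edgeR).

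Genes of 2 further lists, nitrogen catabolite repression and efflux, were called higher more often than lower. Of 35 genes on the nitrogen catabolite repression list 12 rose and 1 fell (37.1% called, against 13% of all genes), with a median of 0.15. The list is broad, and not every member answers mainly to that repression. Without wild type replicate 1, 14 rose and none fell. Their summed level was 5878 to 6157 CPM in Pcf11-DNL and 5406 to 5443 CPM in wild type. GDH3, a glutamate dehydrogenase, had 39.4, 39.3 and 37.2 CPM in Pcf11-DNL, against 23.8, 20.96 and 23.00 CPM in wild type (log2 fold change 0.78 ± 0.07 SE, adjusted p = 1.46e-06 by edgeR). BAP3, a permease of branched-chain amino acids, had 368, 341 and 368 CPM in Pcf11-DNL, against 254, 269 and 270.2 CPM in wild type (log2 fold change 0.44 ± 0.05 SE, adjusted p = 8.06e-06 by edgeR). GNP1, a glutamine permease, had 645, 619 and 645 CPM in Pcf11-DNL, against 514, 487 and 502 CPM in wild type (log2 fold change 0.34 ± 0.04 SE, adjusted p = 3.51e-05 by edgeR). MEP2, an ammonium transporter, rose by 0.35 and BAP2, another branched-chain permease, by 0.31. GAP1, the general amino acid permease, had 256, 232 and 249 CPM in Pcf11-DNL, against 226, 219.7 and 218 CPM in wild type, and was called only without wild type replicate 1 among the fits that leave out a wild type library (edgeR adjusted p = 0.0523 with all libraries, 0.029 without it, range over the alternatives 0.00711 to 1).

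Of 24 genes on the multidrug and efflux list 5 rose and 1 fell (25% called, against 13% of all genes). Without wild type replicate 1 the counts were 7 and 1. TPO2 (YGR138C, chrVII:763762-765606, − strand), a polyamine exporter, had 765, 749 and 754 CPM in Pcf11-DNL, against 450.0, 526 and 479 CPM in wild type (log2 fold change 0.64 ± 0.05 SE, adjusted p = 3.73e-07 by edgeR). TPO4, of the same family, had 59.01, 53.1 and 50.5 CPM in Pcf11-DNL, against 35.5, 36.5 and 35.5 CPM in wild type (log2 fold change 0.60 ± 0.07 SE, adjusted p = 1.82e-05 by edgeR). YRO2, a membrane protein of unknown function that the list also counts, rose by 0.62, and TPO3 by 0.36. PDR5, the main multidrug pump, had 517, 507 and 538 CPM in Pcf11-DNL, against 624, 597 and 598 CPM in wild type (log2 fold change −0.22 ± 0.04 SE, adjusted p = 0.00229 by edgeR).

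In several groups that hold many genes of low level, more genes were called higher than lower. Of 33 genes of meiosis and sporulation 9 rose and 1 fell (30.3% called, against 13% of all genes), with a median of 0.31. Without wild type replicate 1 the counts were also 9 and 1, with a median of 0.27. Of the 33 genes 26 lie in the lowest quintile of expression, where the median over all genes was 0.15. SSP1, a coat protein of the forming spore membrane, had 21.7, 19.3 and 19.98 CPM in Pcf11-DNL, against 12.1, 11.1 and 12.98 CPM in wild type (log2 fold change 0.75 ± 0.11 SE, adjusted p = 0.000176 by edgeR). NDT80, the transcription factor of middle meiosis, had 52.6, 57.2 and 52.4 CPM in Pcf11-DNL, against 38.6, 42.5 and 39.5 CPM in wild type (log2 fold change 0.43 ± 0.06 SE, adjusted p = 0.000183 by edgeR). HOP1, of the meiotic chromosome axis, rose by 0.52. The member that fell was IME1, the first activator of meiosis, with 6.29, 5.55 and 6.84 CPM in Pcf11-DNL, against 7.72, 9.26 and 8.65 CPM in wild type (log2 fold change −0.46 ± 0.14 SE, adjusted p = 0.0451 by edgeR), and that call ended under library totals, with DESeq2's Wald test and when Pcf11-DNL replicate 1, 2 or 3 or wild type replicate 2 or 3 was left out (edgeR adjusted p = 0.0583 to 0.152). The sporulating-diploid marker list summed to 89.1 to 95.6 CPM in Pcf11-DNL and 70.7 to 75.7 CPM in wild type, led by NDT80, and none of its 5 genes was at 0. Of 35 autophagy genes 6 rose and none fell, with a median of 0.11. That is 17.1%, near the 13% called of all genes, and 20 of the 35 lie in the lowest quintile, where 12.8% of all genes were called higher. Without wild type replicate 1 5 rose, with ATG38 lost, and ATG22 was lost when Pcf11-DNL replicate 1 or 3 or wild type replicate 2 or 3 was left out. ATG14, a subunit of the autophagy kinase complex that makes phosphatidylinositol 3-phosphate, had 6.09, 8.43 and 6.76 CPM in Pcf11-DNL, against 3.99, 3.52 and 3.74 CPM in wild type (log2 fold change 0.92 ± 0.19 SE, adjusted p = 0.00334 by edgeR).

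Of 87 stress-induced genes 16 rose and 2 fell (20.7% called, against 13% of all genes), with a median of 0.11. The counts were 14 and 4 without wild type replicate 1, and 20 and 0 under library totals. Of the 87 genes 32 lie in the lowest quintile. HSP30 (YCR021C, chrIII:156109-157107, − strand), a plasma membrane heat shock protein, had 172, 175 and 157 CPM in Pcf11-DNL, against 94.8, 97.9 and 95.7 CPM in wild type (log2 fold change 0.81 ± 0.05 SE, adjusted p = 2.12e-08 by edgeR). PIC2, a mitochondrial carrier of copper and phosphate, had 139.8, 142 and 128 CPM in Pcf11-DNL, against 69.3, 76.4 and 80.02 CPM in wild type (log2 fold change 0.86 ± 0.07 SE, adjusted p = 3.77e-07 by edgeR). The 2 that fell were HSP12, a small membrane-binding heat shock protein, and PGM2, phosphoglucomutase. HSP12 had 7.93, 8.01 and 8.15 CPM in Pcf11-DNL, against 8.34, 12.8 and 10.9 CPM in wild type (log2 fold change −0.43 ± 0.13 SE, adjusted p = 0.0357 by edgeR), and PGM2 had 15.6, 16.02 and 15.2 CPM in Pcf11-DNL, against 18.2, 18.5 and 19.3 CPM in wild type (log2 fold change −0.26 ± 0.07 SE, adjusted p = 0.0298 by edgeR). Both calls ended under library totals and when any 1 library other than wild type replicate 1 was left out (edgeR adjusted p = 0.0521 to 0.145). HSP26, a small heat shock protein, and DDR48, a stress protein, were gained as lower without wild type replicate 1 (log2 fold changes −0.66 and −0.23). SSE2, an Hsp110 chaperone, and YGP1, a secreted glycoprotein, rose by 0.59 and 0.42. HSP30, PIC2, SSE2 and YGP1 had no overlap between groups, and without wild type replicate 1 their log2 fold changes were 0.80 for HSP30, 0.81 for PIC2, 0.60 for SSE2 and 0.36 for YGP1.

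Many of the 50 lists had a share of genes called no higher than the 13% of the whole table, and 4 of them follow. Among the others were chaperones (6.82%), tRNA synthetases (5%), histones (9.09%) and purine synthesis (11.1%). The 1 call on the tRNA synthetase list was CYS3, which is not a synthetase and is also on the list of sulfate assimilation and methionine. None of 65 mitochondrial ribosomal protein genes was called with or without wild type replicate 1. Among 129 genes for making ribosomes 8 fell and 0 rose (7 and 1 without wild type replicate 1), with a median of −0.09 that became −0.05 without that library, and 95 of them lie in the highest quintile of expression. NOG2, a GTPase of large-subunit export, had 459, 457 and 464 CPM in Pcf11-DNL, against 625, 552 and 563 CPM in wild type (log2 fold change −0.33 ± 0.05 SE, adjusted p = 0.000399 by edgeR). Of 34 genes of the step from G1 to S phase 4 fell, and without wild type replicate 1 only CLB5 remained, while HO, GIN4 and RNR1 were lost. CLB5, a B-type cyclin, had 35.2, 36.2 and 36.04 CPM in Pcf11-DNL, against 41.1, 42.2 and 44.04 CPM in wild type, and its call ended when wild type replicate 3 was left out (edgeR adjusted p = 0.0505, range over the alternatives 0.00756 to 1). Of 34 proteasome genes RPN4, their transcription factor, was the one called (RPT4 was called lower as well without wild type replicate 1), with 94.1, 106 and 95.98 CPM in Pcf11-DNL, against 75.7, 72.9 and 71.3 CPM in wild type (log2 fold change 0.43 ± 0.05 SE, adjusted p = 5.16e-05 by edgeR). Phospholipid synthesis held more calls. Of 21 genes 3 rose and 6 fell (42.9%), and 3 of the falls (CDS1, ITR1 and PSD1) were lost without wild type replicate 1.

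The direction of the small changes went with expression level. In the lowest quintile of genes by mean CPM (0.141 to 20.0 CPM) 145 were called higher and 15 lower, and the median log2 fold change was 0.15. In the highest quintile (175 to 18846 CPM) 54 were higher and 114 lower, and the median was −0.07. Wild type replicate 1 leaned furthest, with a median deviation from the mean of the 6 libraries of −0.12 in the lowest quintile and 0.09 in the highest. The other wild type libraries were at −0.06 and −0.04 in the lowest quintile, and the Pcf11-DNL libraries between 0.07 and 0.09. Without wild type replicate 1 the counts were 111 and 16 in the lowest quintile (median 0.13) and 62 and 91 in the highest (median −0.04). Under library totals they were 181 and 11, and 90 and 61. What part level or this library has in the group results above was not tested.

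**Figure D5:**
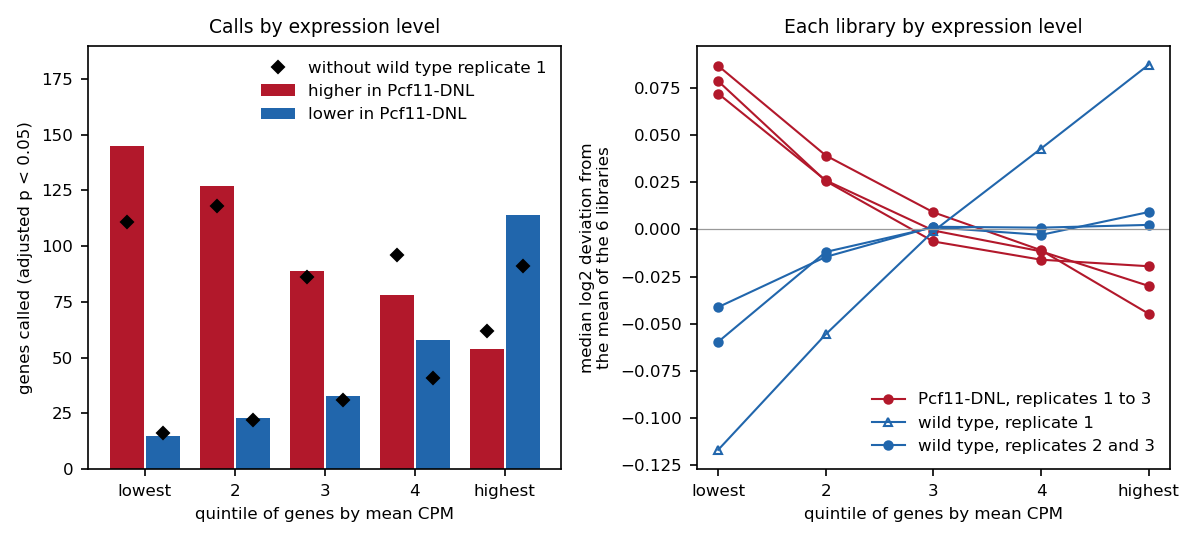
Left, genes called higher (red) and lower (blue) in Pcf11-DNL in each quintile of genes by mean CPM (x axis), with diamonds for the counts without wild type replicate 1; right, the median log2 deviation of each library from the mean of the 6 libraries in the same quintiles. Higher calls become fewer and lower calls more numerous along the quintiles, and the line of wild type replicate 1 is the steepest, while the other wild type lines lie below the Pcf11-DNL lines in the lowest quintile and above them in the highest.

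The genes whose calls turned on wild type replicate 1 were mostly close to the threshold. The 163 lost calls had a median adjusted p of 0.0789 without it. The largest of them at 5 CPM or more were YHR218W (−0.69 with all libraries and −0.56 without), a subtelomeric reading frame with 15 near-identical copies, YIL089W (0.62 and 0.48), of unknown function, MLS1 (0.53 and 0.58), malate synthase of the glyoxylate cycle, and SPS18 (−0.51 and −0.40), a sporulation protein. SPS18 had 7.52, 7.09 and 6.99 CPM in Pcf11-DNL, against 11.98, 8.97 and 10.1 CPM in wild type, with wild type replicate 1 the highest. The largest gained were TIS11, described above, DBP1, an RNA helicase, SLZ1, a meiotic protein, and YNL195C, of unknown function. DBP1 had 9.85, 9.90 and 9.14 CPM in Pcf11-DNL, against 10.02, 6.75 and 5.64 CPM in wild type: wild type replicate 1 lay above the Pcf11-DNL libraries and the other wild type libraries below them (0.39 with all libraries and 0.64 without). At the zinc transporter gene ZRT1, with 146, 178 and 140.1 CPM in Pcf11-DNL, against 275, 187 and 184 CPM in wild type, the log2 fold change was −0.26 without this library and −0.47 with it, and the call ended with DESeq2's Wald test and when Pcf11-DNL replicate 1 or 3 was left out (edgeR adjusted p = 0.0743 to 0.0804).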

How the data were processed

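The data are RNA-seq gene levels from 9 cultures of yeast, of which 6 are compared here. The authors deposited 1 table of expected counts per gene from RSEM (version 1.3, per the submitters' processing notes), for 5928 genes. The notes also name Trimmomatic 0.38, FastQC, STAR 2.6.1b, DESeq2 1.26.0 and the build sacCer3, with no order, and no source used here gives the strand setting or the annotation. Of the deposited expected counts 10.8% were not whole, and they were rounded. A W303 strain was counted on the assembly of another strain. RSEM shares reads between similar genes, so repeated genes are uncertain, and overlapping genes may be too. Gene names and positions came from RefSeq R64, which matched 5919 of 5928 genes.

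Genes were kept by filterByExpr (minimum count 10), which left 5646, and scaled by TMM. The main test was edgeR 4.0.16 (R 4.3.3), glmQLFit and glmQLFTest with a group term over all 9 libraries, contrast Pcf11-DNL minus wild type. SE is the fold change divided by the square root of F. The biological coefficient of variation was 4.59%. Library totals of 12361071 to 15906466 limit precision mainly for low genes. Alternatives were DESeq2 1.42.0, limma 3.58.1 (voom), other scalings, filters and fits, a test against a fold of 1.2, leaving out each library, and, chosen after seeing the data, library totals without wild type replicate 1. The test was tried on simulated data. Replicate numbers were not treated as pairs, since the labels do not say that they pair cultures. Residuals of same-numbered libraries correlated by 0.00097, 0.136 and 0.0339, and those of other pairs by −0.156 to 0.114. With 3 libraries in each group these values cannot decide whether cultures were paired. The replicates are labelled biological, and p-values measure the spread between them.

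Genes named in full were PCF11, LEU2 and TRP1, the 12 highest and 12 lowest called with and without wild type replicate 1 at a mean of 5 CPM or more with no overlap, the 4 largest lost and gained without it, and up to 4 members of a list with the smallest adjusted p, plus members needed to state roles. Members, lists and rules were chosen with earlier results of these data known. No single list was tested. COS3, DID2 and other genes named elsewhere in the closing section were chosen after their values were seen.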

Additional observations from a re-analysis of the deposited data

How the results depend on the processing

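With all libraries 493 genes were higher and 243 lower. No called gene changed direction under any of the 18 alternatives run. The higher count moved by over 1.5 times only when tested against a fold of 1.2 (89 higher, 15 lower). The lower count moved under library totals (124), library totals without wild type replicate 1 (133, chosen after seeing the data) and a fit to the 6 libraries alone (155). Leaving out 1 library gave 354 to 473 higher and 129 to 233 lower genes, and the lower count was 143, 134 and 129 without Pcf11-DNL replicate 1, 2 and 3. The cause of these moves was not tested, apart from the stricter null of the fold test. DESeq2's Wald test called 402 higher and 299 lower, and limma-voom 468 and 231. With the replicate number as a block 416 genes were higher and 164 lower in the 6 libraries, and 527 and 320 in all 9. The labels do not say that the numbers pair the cultures. Pcf11-DNL replicates 1 and 3 correlated better with another number than with their own, and replicate 2 best with its own. At this depth the design resolves small differences in well expressed genes, and a p that misses the threshold does not show that a gene was unchanged. Of 118 falls under 0.2 on the log2 scale, 60 were kept without wild type replicate 1.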

Other observations

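Of 10 flocculin and adhesion genes 3 rose (FLO1, FLO9 and FLO10) and AGA1 fell (40% called, against 13% of all genes), with the same counts without wild type replicate 1. AGA1 was lost when Pcf11-DNL replicate 2 or 3 was left out (edgeR adjusted p = 0.072 to 0.0834), and FLO9 when Pcf11-DNL replicate 1 or 3 was left out (edgeR adjusted p = 0.0502 to 0.0536). FLO1, a lectin-like flocculin, had 8.18 ± 0.438 CPM in Pcf11-DNL and 5.30 ± 1.07 CPM in wild type (SD, n = 3 each; log2 fold change 0.64 ± 0.14 SE, adjusted p = 0.00772 by edgeR). FLO10, of the same family, had 15.6, 17.3 and 17.8 CPM in Pcf11-DNL, against 13.6, 12.7 and 10.7 CPM in wild type (log2 fold change 0.47 ± 0.10 SE, adjusted p = 0.00702 by edgeR). Both rose by more without wild type replicate 1 (0.79 for FLO1 and 0.53 for FLO10), and flocculin genes share sequence, so the split of reads between them is uncertain. Of 20 hexose transport genes 4 rose and 1 fell (25% called, against 13% of all genes), and MTH1 was lost without wild type replicate 1. HXT1 was lost when Pcf11-DNL replicate 3 was left out (edgeR adjusted p = 0.105, range over the alternatives 0.00295 to 1), and HXT7 when Pcf11-DNL replicate 1 or 3 or wild type replicate 2 was left out (edgeR adjusted p = 0.0676 to 0.0983). HXT5, a transporter of slow growth, had 18.6, 20.1 and 17.3 CPM in Pcf11-DNL, against 13.7, 14.3 and 13.6 CPM in wild type (log2 fold change 0.43 ± 0.08 SE, adjusted p = 0.00186 by edgeR), and HXT1, the low-affinity transporter of high glucose, had 359, 350.0 and 341 CPM in Pcf11-DNL, against 392, 389.6 and 386 CPM in wild type (log2 fold change −0.15 ± 0.04 SE, adjusted p = 0.018 by edgeR). Under library totals 8 rose and HXT1 was not called.

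Of 46 cell wall genes 6 rose and 4 fell (21.7% called, against 13% of all genes), and without wild type replicate 1 6 and 3, with CHS2 and PST1 lost and TIP1 gained. CWP2, a major mannoprotein, had 231, 237 and 236 CPM in Pcf11-DNL, against 307, 279.9 and 271 CPM in wild type (log2 fold change −0.28 ± 0.05 SE, adjusted p = 0.000759 by edgeR). Of 12 zinc genes ZRT1 and ZRT3 fell (16.7% called, against 13% of all genes), and ZRT3 was lost without wild type replicate 1.

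Single libraries decide some repeated or low genes. COS3, a subtelomeric gene, had 36.03, 49.2 and 14.3 CPM in Pcf11-DNL, against 0, 53.04 and 41.4 CPM in wild type, with wild type replicate 1 listed at 0 (edgeR adjusted p = 0.981 with all libraries). DID2, an endosomal sorting factor, had 11.3, 0 and 1.31 CPM in Pcf11-DNL, against 0, 0 and 0.328 CPM in wild type, so that its call as higher (adjusted p = 0.0404 by edgeR) was carried by Pcf11-DNL replicate 1. Without wild type replicate 1 the edgeR adjusted p was 0.0641 (range over the alternatives 0.011 to 0.422). These genes were chosen after their values were seen.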
